A study of Drosophila melanogaster with 36 samples.

Results

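The comparison described here is the effect of the orb2-delta-zz deletion on how each RNA was distributed between 2 pools of a sucrose gradient in Drosophila melanogaster embryos aged 1-2h. It used 12 of the 36 libraries of the study, namely pool 1 and pool 3 of 6 of its 18 gradients. The 3 gradients of one group came from embryos of w1118, the stock that had not been injected and that serves as wild type. The 3 gradients of the other came from embryos of orb2-delta-zz, in which the ZZ domain of ORB2 is deleted. Flies of both groups were kept at 25°C, and lysates of their embryos were run on gradients of 15 to 45% sucrose in the presence of cycloheximide. The labels give no independent line of the allele and do not say whether the 3 gradients came from separate collections, so p-values measure the spread between these gradients, which may be technical. Where in the gradient pools 1 and 3 were taken is not stated in the labels.

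In a sucrose gradient an RNA is separated by the mass of what it is bound to, so an mRNA loaded with many ribosomes sediments further than one in a free ribonucleoprotein. Cycloheximide holds elongating ribosomes on the mRNA. ORB2 is a fly member of the CPEB family, proteins that bind the 3′ untranslated region of mRNAs and repress or activate their translation; the ZZ domain is a zinc-binding fold at the C terminus of the family. Embryos of 1-2h are still in the rapid syncytial nuclear cycles and live almost entirely on mRNA supplied by the mother, so the distribution of an mRNA in the gradient at this age is largely that of maternal message.

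The measurement was 1 pool ratio per gene and gradient, log2(pool 3 + 1) minus log2(pool 1 + 1) of the authors' normalized counts. A ratio above 0 means a higher normalized count in pool 3 than in pool 1. The normalization sets each library against the median gene, so a ratio is relative to the other genes and a shift of all mRNA between the pools cannot be seen in it. Its zero is set by that scaling, so the sign of a ratio does not say which pool held more of an RNA. A difference between genotypes is always the orb2-delta-zz value less the wild-type value on this log2 scale, ± SE, and group means are given ± SD (n = 3 gradients). Wherever 3 values are listed for a genotype, they belong to its replicates 1, 2 and 3.

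The libraries held 26.4 to 44.2 M normalized counts, from an estimated 23.0 to 45.8 M reads. The 6 gradients were alike in the overall spread of their ratios (SD over genes 1.95 to 2.06, median ratio 0.00 to 0.09). The share of TPM from small nuclear and nucleolar RNAs was 10.6 to 16.1% in pool 1 and 0.684 to 1.07% in pool 3, with the genotypes overlapping in both pools. Summed TPM of 62 listed first zygotic transcripts was lower in every orb2-delta-zz library than in any wild-type one, at 836 to 1046 against 1323 to 1932 in pool 1 and 3210 to 4496 against 6158 to 8699 in pool 3. The summed TPM of the 39 listed late-embryo markers of 45 overlapped between genotypes in both pools, with the highest sum (1806 TPM) in pool 3 of wild-type replicate 2, but the typical marker did not. Its median log2 deviation from the mean of the 6 gradients was 0.34, 1.23 and -0.01 in wild type and -0.49, -0.71 and -0.31 in orb2-delta-zz in pool 1, and 0.21, 1.43 and 0.15 against -0.57, -0.69 and -0.22 in pool 3. All 3 mutant gradients were below all 3 wild-type ones in both pools, with median differences between genotypes over the 37 tested markers of -1.01 and -1.18. Of 32 markers of fat body, gut and hemolymph 5 were listed. They summed to at most 40.2 TPM in any pool 3 library of orb2-delta-zz and at least 75.7 TPM in those of wild type. The single markers went both ways: in pool 3 Hml differed by -1.23 on the log2 scale, PPO2 by 0.17 and apolpp by 0.38. The median over the 4 tested was -0.53, which places the tested marker not named here no higher than Hml. Of 22 egg-shell markers only Pxt and of 27 sperm markers only bol was listed. The late-embryo list serves as a check of staging. A difference in mean stage between the collections, fewer cells of a type and less RNA per cell cannot be told apart in whole embryos. The part of these marker differences in the ratios was not tested.

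orb2 itself was present in both genotypes and the difference in its ratio was smaller than the spread between gradients. Its pool ratio was 0.19, 0.25 and 0.77 in the wild-type gradients and -0.13, 0.08 and 0.85 in those of orb2-delta-zz. The groups overlapped, and the difference was -0.14 ± 0.30 (adjusted p = 0.957). The ratio of the whole gene is no check of the deleted part, and reads of orb2 may be split with CG43783, whose exons overlap it on the same strand.

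Of 8723 genes listed, 8294 averaged at least 10 normalized counts and were tested with limma. In orb2-delta-zz 33 genes (0.398% of those tested) had another pool ratio at a Benjamini-Hochberg adjusted p under 0.05. The ratio was higher for 11 (0.133%), CG12560 and Tgt among them, and lower for 22 (0.265%), led by CG6180, Hen1 and CG8187. The called differences ran from 0.95 to 3.70 in size, against a median size of 0.19 over all tested genes. An unadjusted p under 0.05 was reached by 733 genes (8.84%), and 327 genes differed by at least 1, of which 32 were called. The 3 ratios of one genotype did not overlap the 3 of the other for 1169 genes (14.1%), among them all 33 called.

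How many of these calls hold depends on the fit and on single gradients. Gradients with the same replicate number tended to deviate together, though for replicate 3 about as weakly as some gradients with different numbers. With the number as a block shared between genotypes, limma called 2 genes (0.0241%), Tgt and CG6180, both at an adjusted p of 0.0425. The other 31 had adjusted p-values of 0.0554 to 0.178 with the block. Without wild-type replicate 1 no gene was called; without wild-type replicate 2 or 3 there were 15 and 5 calls, and without orb2-delta-zz replicate 1, 2 or 3 there were 2, 2 and 1. Tgt was called in 5 of these 6 fits and CG6180 in 4, while 25 of the 33 genes were called in none of them. All 33 kept their direction in every alternative fit in which they could be tested, but most of these fits could not have changed it. Where gradients were left out, this followed from the lack of overlap. The block, pairing, trend and filter settings leave the difference itself as it was. The split of 11 higher against 22 lower became 8 against 10 with upper-quartile scaling.

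**Figure D1:**
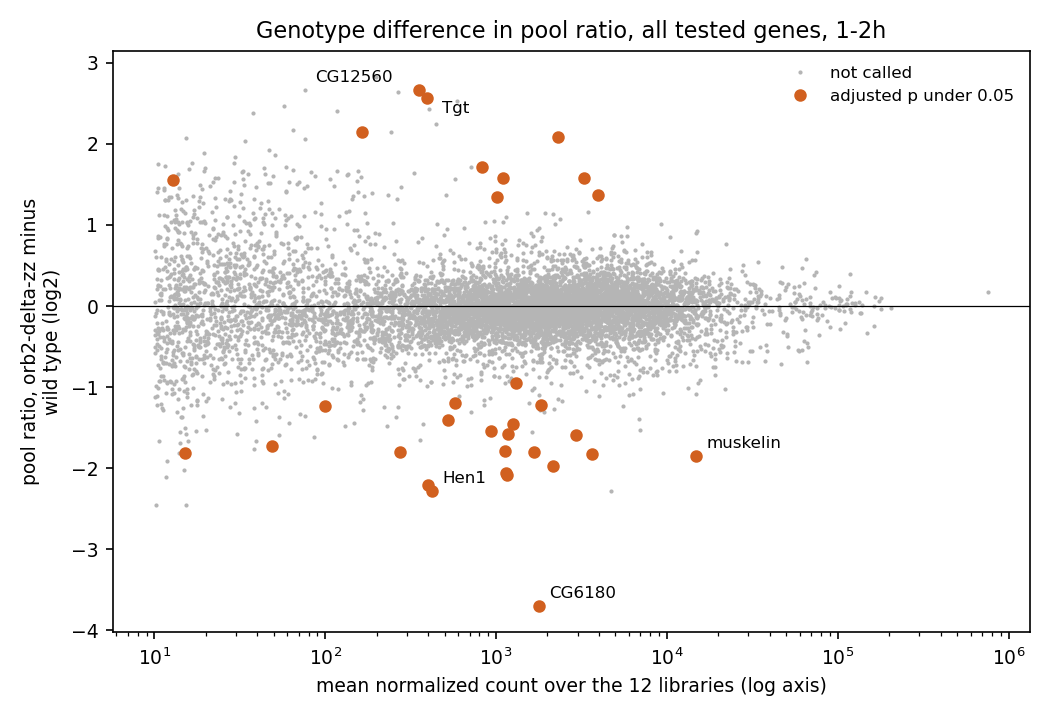
Genotype difference in pool ratio at 1-2h (vertical axis, log2, orb2-delta-zz minus wild type) against the mean normalized count over 12 libraries (horizontal log axis), 1 point per gene shown. The called genes (orange) lie at least 0.95 from 0, as do many uncalled genes, whose spread is widest at low counts. Of the 327 tested genes that differed by at least 1, 32 were called. Among called genes with a lower ratio muskelin is the most abundant.

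The genes chosen by size for description were called genes with a higher or a lower ratio, each averaging at least 100 normalized counts. solo and dati, which missed the threshold, filled the choice by smallest unadjusted p (limma) among genes whose genotypes did not overlap. The chosen genes are given here by what their products are known to do.

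muskelin, a subunit of the CTLH ubiquitin ligase, which removes maternal repressor proteins in the early embryo, was the most abundant of the genes with a lower ratio. Its mRNA lay further towards pool 1 in orb2-delta-zz.

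muskelin (chromosome 2R, 12628697 to 12632378, BDGP6) stood at 8731, 6830.1 and 9313 normalized counts in wild-type pool 1 against 24948, 21699 and 18409 in orb2-delta-zz. In pool 3 it had 17117, 14650 and 19382 against 12810, 12066 and 12111. Its wild-type ratios of 0.97, 1.10 and 1.06 stood apart from its mutant ratios of -0.96, -0.85 and -0.60. In TPM its mean was higher in pool 3 in both genotypes, at 51.8 in pool 1 and 368 in pool 3 of wild type and 129 and 262 in the mutant. The difference was -1.85 ± 0.17 (adjusted p = 0.0207), and with the replicate block its adjusted p of 0.0554 just missed the threshold.

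RNA-modifying enzymes were found on both sides. Tgt, the catalytic subunit of the transglycosylase that places queuosine in the anticodon of some tRNAs, had the smallest p of all genes, and its ratio rose. Hen1, the methyltransferase that protects the 3′ ends of piRNAs and siRNAs, had a lower ratio. In pool 1 Tgt stood at 449, 334 and 459.8 normalized counts in the wild-type gradients and 263, 314 and 268 in the mutant ones, whereas in pool 3 it stood at 203, 137 and 185 against 707, 788 and 624. Every mutant value was below every wild-type one in pool 1 and above every one in pool 3. In TPM the mean was 5.50 in pool 1 and 7.99 in pool 3 of wild type and 3.51 and 31.8 in the mutant. The ratios, -1.15, -1.27 and -1.31 in wild type and 1.43, 1.32 and 1.21 in the mutant, differed by 2.56 ± 0.16 (adjusted p = 0.00613; with the replicate block 0.0425).

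The counts of Hen1 in wild-type pool 1 were 100.1, 87.6 and 107 against 228, 297 and 250.3 in orb2-delta-zz. In pool 3 it had 954, 781 and 875 against 487, 458 and 447. The RNA was higher in pool 1 and lower in pool 3 of every mutant gradient, and the ratios of the genotypes did not overlap. Its mean ratio was 3.14 ± 0.11 in wild type and 0.85 ± 0.24 in the mutant, a difference of -2.28 ± 0.21 (adjusted p = 0.0207).

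**Figure D2:**
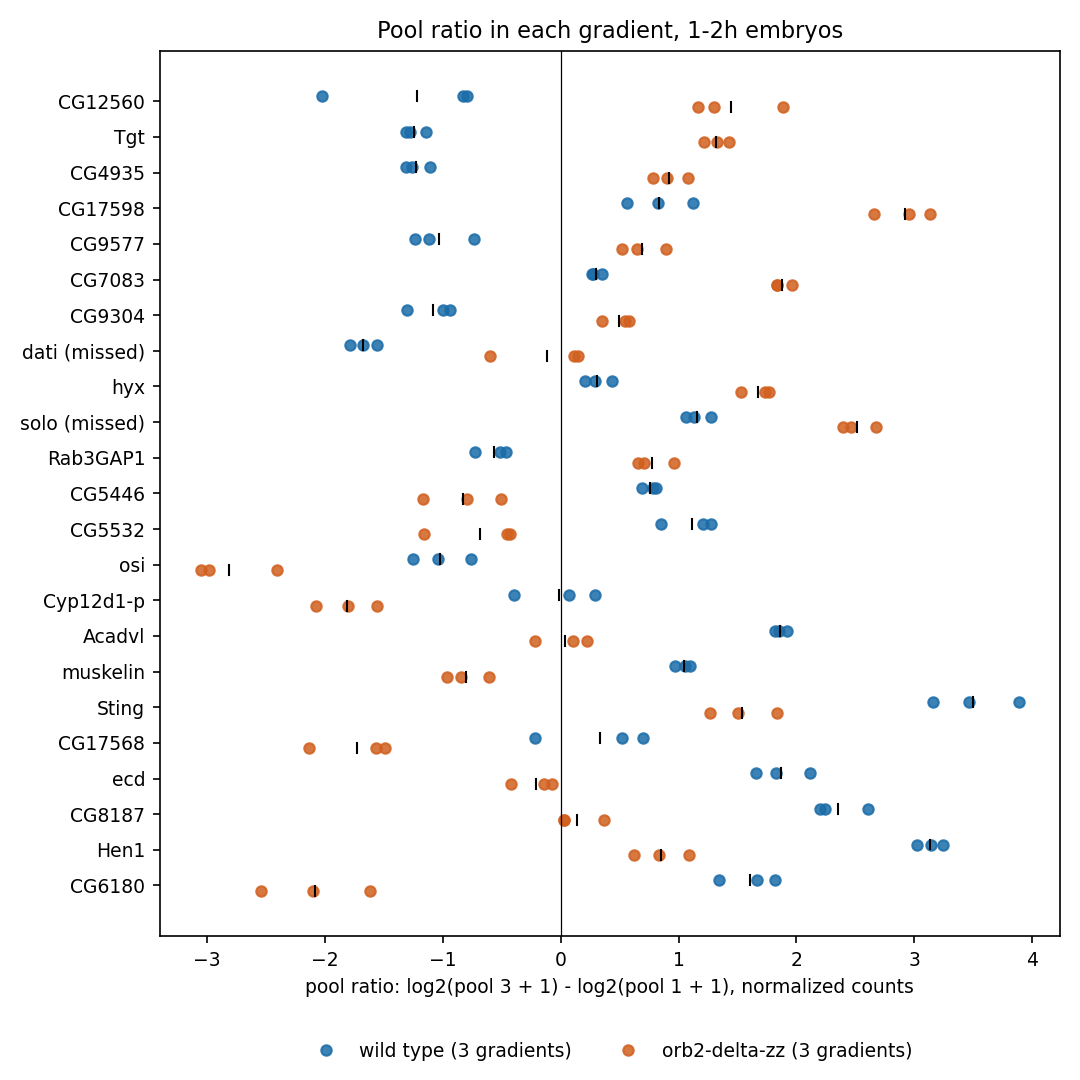
Pool ratio (horizontal axis, log2 of pool 3 over pool 1, each + 1 normalized count) of the genes chosen by size, with solo and dati added by smallest p. Points are the 3 wild-type gradients (blue) and the 3 orb2-delta-zz gradients (orange) at 1-2h, with black ticks at the means. The colours do not overlap for any gene shown, which their choice required; Tgt and CG6180 have their genotypes far apart in opposite directions, and "missed" marks solo and dati, which did not pass the test.

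The largest difference among the called genes belonged to CG6180, a gene of the phosphatidylethanolamine-binding protein family. Pool 1 of wild type held 1089, 1118 and 1068 normalized counts and that of orb2-delta-zz 1832, 2906 and 1842. Pool 3 held 3841, 2845 and 3391 against 598, 497 and 429. Every mutant value was above every wild-type one in pool 1 and below every one in pool 3. Ratios of 1.82, 1.35 and 1.67 stood against -1.61, -2.55 and -2.10, with a difference of -3.70 ± 0.27 (adjusted p = 0.00841; with the replicate block 0.0425). Its exons overlap those of CG15484 on the other strand, and the sources used here do not state whether counting used the strand.

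Transcription and nuclear factors were represented by hyx, ecd and CG17568. hyx encodes the fly Cdc73 (parafibromin), a subunit of the PAF1 complex that travels with RNA polymerase II. In pool 1 it had 3989, 3688 and 4269.9 normalized counts in the wild-type replicates and 1685, 1566 and 1693 in those of orb2-delta-zz, while pool 3 held 4896, 4244 and 5785 against 5723, 5212 and 4885. The genotypes were apart in pool 1 and overlapped in pool 3. The difference in ratio was 1.36 ± 0.19 (adjusted p = 0.0449).

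ecd, ecdysoneless, is needed for ecdysone production and for splicing through the U5 protein Prp8. Pool 1 held 543, 471 and 434 normalized counts in wild type and 1239, 1536 and 1049 in the mutant, and pool 3 held 1934, 1488 and 1881 against 1124, 1145 and 999.7. Both pools differed without overlap and in opposite directions, and the ratio fell from 1.87 ± 0.23 to -0.21 ± 0.19 (difference -2.08 ± 0.21, adjusted p = 0.0249). The ratio of CG17568 fell by a similar amount (-2.06 ± 0.29, adjusted p = 0.0484), with wild-type ratios of 0.52, -0.22 and 0.69 and mutant ones of -1.57, -2.14 and -1.49; its exons overlap brat on the other strand.

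Genes of metabolism, membrane traffic and innate immunity were among those called. Acadvl, the very-long-chain acyl-CoA dehydrogenase of mitochondrial fatty acid oxidation, had ratios of 1.82, 1.85 and 1.92 in wild type and 0.10, -0.21 and 0.22 in the mutant (-1.83 ± 0.20, adjusted p = 0.0326). Pool 1 held 1505, 1257 and 1468 normalized counts against 3908, 4585 and 3377, and pool 3 held 5326, 4531 and 5547 against 4192, 3951 and 3947, so the genotypes were apart in both pools and further so in pool 1. Cyp12d1-p, a mitochondrial cytochrome P450 induced by xenobiotics, was also higher in pool 1, with 171, 145 and 246 normalized counts in wild-type pool 1 against 550.0, 576 and 580.4 in the mutant and overlapping values in pool 3 (-1.80 ± 0.23, adjusted p = 0.041). This gene has a near-identical neighbour, Cyp12d1-d, so how reads were divided between the pair is uncertain. Fnta, the farnesyltransferase alpha subunit (-1.54 ± 0.18, adjusted p = 0.0335), and p24-1, a cargo receptor between endoplasmic reticulum and Golgi (-1.22 ± 0.15, adjusted p = 0.0389), also had lower ratios.

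Sting, the fly receptor for cyclic dinucleotides in antiviral signalling, had ratios of 3.89, 3.46 and 3.16 in wild type. In orb2-delta-zz the ratios were 1.502, 1.84 and 1.26, a difference of -1.97 ± 0.27 (adjusted p = 0.0454). Pool 3 did not separate the genotypes (3710.3, 3156 and 4121 against 3502, 3642 and 3159 normalized counts), whereas pool 1 did, at 249.7, 285 and 461 against 1236, 1017 and 1315. On the higher side, Rab3GAP1, a subunit of the complex that regulates Rab3 and Rab18 in vesicle traffic, went from ratios of -0.46, -0.73 and -0.52 to 0.66, 0.71 and 0.96 (1.34 ± 0.18, adjusted p = 0.0421). CG9577, listed with the synonym Ech1, rose from -1.03 ± 0.26 to 0.69 ± 0.19 (1.72 ± 0.20, adjusted p = 0.0335), with more RNA in every mutant library of both pools than in any wild-type one.

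CG12560 had the largest difference among the called genes with a higher ratio, and it was a gene with little RNA in wild type. Its wild-type libraries held 10.1, 38.9 and 23.4 normalized counts in pool 1 and 5.4, 8.81 and 12.7 in pool 3, where 1 read was worth an estimated 0.577 to 1.19 normalized counts. In orb2-delta-zz it had 447, 289 and 390.4 in pool 1 and 1099, 1069 and 874 in pool 3. All mutant libraries exceeded all wild-type ones in both pools, and more so in pool 3. The ratios, -0.79, -2.02 and -0.83 in wild type and 1.30, 1.88 and 1.16 in the mutant, differed by 2.66 ± 0.38 (adjusted p = 0.0484), and those of wild type rest on few reads.

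CG4935 differed in pool 3, while its pool 1 values overlapped. Its pool 1 values, 189, 140.1 and 131 normalized counts in wild type and 148, 151 and 156 in the mutant, stood beside pool 3 counts of 77.9, 55.9 and 60.2 against 277, 319 and 270.4. The ratio rose by 2.15 ± 0.16 (adjusted p = 0.00841). CG17598 (2.08 ± 0.24), CG7083 (1.58 ± 0.18) and CG9304 (1.57 ± 0.17) also rose, at adjusted p-values of 0.0335, 0.0326 and 0.0326. CG7083 differed more in pool 1 than in pool 3. Its pool 1 counts of 1067, 976 and 1193 in wild type stood against 474, 428 and 389, and its pool 3 counts of 1364, 1171 and 1445 against 1694, 1529 and 1521.

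On the lower side, CG8187 went from ratios of 2.61, 2.24 and 2.20 to 0.37, 0.03 and 0.03 (-2.21 ± 0.22, adjusted p = 0.0244). osi differed by -1.79 ± 0.22 (adjusted p = 0.0389), from a mean ratio of -1.02 ± 0.25 to -2.81 ± 0.35. CG5532 (difference -1.79 ± 0.25) and CG5446 (difference -1.59 ± 0.21) also fell, without overlap of the genotypes, at adjusted p-values of 0.0484 and 0.0421. The 11 called genes outside the naming rule had differences of -0.95 (CG14931) to -1.81 (CG32026) on the lower side and 1.56 for CG15870 on the higher one. At a mean of 12.9, 15.1 and 99.6 normalized counts, CG15870, CG32026 and CG12708 moved by over 1.5 times with the processing: over the alternatives their differences ran from 0.62 to 1.77, from -1.94 to -0.97 and from -1.31 to -0.70. CG14931 had wild-type ratios of -1.93, -1.91 and -1.90 and mutant ratios of -2.82, -2.94 and -2.83. Arp10, an actin-related protein of dynactin, differed by -1.20 ± 0.16.

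The 2 genes that filled the naming rule missed the threshold. solo, a meiotic cohesion gene, had ratios of 1.14, 1.07 and 1.27 in wild type and 2.40, 2.68 and 2.46 in the mutant (1.35 ± 0.20, adjusted p = 0.0546), and it shares exons on the same strand with vas, so its counts are uncertain. dati, a zinc-finger gene on chromosome 4, differed by 1.56 ± 0.23 (adjusted p = 0.0562). Its level differed more than its ratio, with 1877, 1148 and 2132 normalized counts in wild-type pool 1 against 25.5, 13.1 and 43.3 in orb2-delta-zz, and 542, 388 and 667 against 27.6, 14.6 and 28.2 in pool 3. Over the alternatives the difference in ratio ranged from 0.50 to 1.43 for solo and from 0.19 to 1.86 for dati.

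Split by pool, the lower ratios came mostly with more RNA in pool 1. Among the 22 genes with a lower ratio the difference was larger in pool 1 than in pool 3 for 19, and the median difference was 1.38 in pool 1 and -0.43 in pool 3. CG6180 and CG18476 were among the 3 with the larger difference in pool 3; CG18476 had -0.13 in pool 1 and -1.58 in pool 3. Among the 11 genes with a higher ratio 5 differed more in pool 3 and 6 more in pool 1, with medians of -0.84 in pool 1 and 0.84 in pool 3. The pools moved in opposite directions for 24 of the 33 genes. These levels are the terms of the ratio that chose the genes and are given as a description, with no test.

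**Figure D3:**
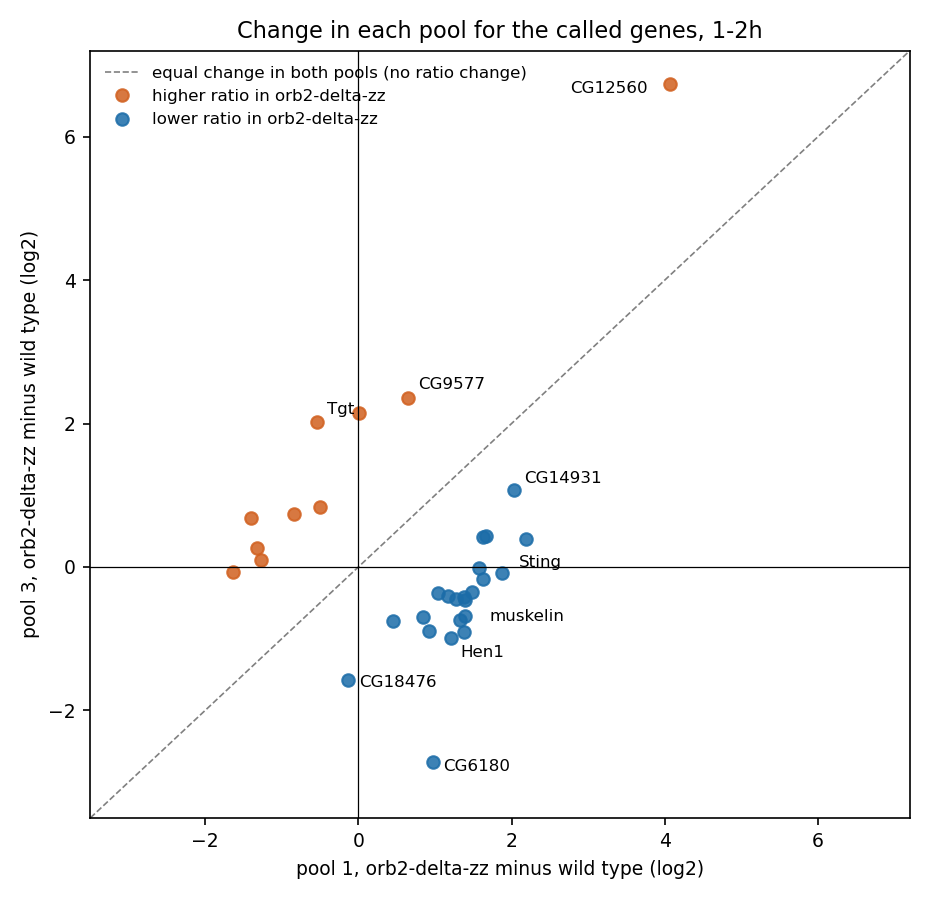
Difference between genotypes (log2, mutant less wild type) in pool 1 (horizontal axis) and in pool 3 (vertical axis) for the genes called at 1-2h, 1 point per gene shown. Genes with a higher ratio (orange) lie above the dashed line of equal change and those with a lower ratio (blue) below it, 17 of these 22 with more RNA in pool 1 and less in pool 3.

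All 33 called genes were protein-coding, as were 95.6% of tested genes with an annotation. The median of the longest annotated transcript was 1576 nt for the 33 and 2124 nt for all tested genes, and 2 of the 33 were among the 2058 genes with the longest transcripts (3561 nt and more). More than 1 transcript was annotated for 19 of the 33 and for 61.8% of all tested. Exons of 11 (CG17598, CG9577, CG15870, CG6180, CG8187, ecd, CG17568, Sting, CG5532, CG18476 and CG14757) overlapped a gene on the other strand, against 36.0% of all tested genes, and those of CG1902 overlapped CG30338 on the same strand (8.19% of all tested had such an overlap).

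The embryos of 0-1h and 2-3h are other samples under the same contrast, and the choice of the 33 genes did not use them. At 0-1h 596 of 7533 tested genes had an unadjusted p under 0.05 (7.91%), 7 were called (0.0929%), and ratios of the genotypes did not overlap for 1159 (15.4%). At 2-3h 2224 of 9554 genes had an unadjusted p under 0.05 (23.3%), none was called (0.0%), and ratios did not overlap for 2894 (30.3%).

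Most of the 33 genes had the same direction in embryos of 0-1h. Of the 32 tested there (all but CG32026), 30 had the same direction, 24 of them at an unadjusted p under 0.05 and 22 without overlap of the genotypes. The 24 compare with 7.91% of all genes in either direction; 67.1% of 7505 genes tested at both times had the same sign. Tgt (1.72 ± 0.13), CG6180 (-3.16 ± 0.28), CG17568 (-1.21 ± 0.11) and CG1902 (-1.18 ± 0.11) were called at 0-1h too, each at an adjusted p of 0.0319; they are 57.1% of the 7 called there and 12.1% of the 33. Sting differed by -1.73 ± 0.21 at 0-1h (adjusted p = 0.0573). The exceptions in direction were CG14931 (0.02 ± 0.14) and Arp10 (0.00 ± 0.11), both at 0 within the error.

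The other 3 genes called at 0-1h leaned the same way at 1-2h without passing the test there. GstT1, a theta-class glutathione S-transferase, differed by 1.24 ± 0.12 at 0-1h and by 1.03 ± 0.18 at 1-2h (adjusted p = 0.105). CG9356 differed by 1.52 ± 0.15 and 1.15 ± 0.25 (adjusted p = 0.184 at 1-2h), and CG9328 by -1.70 ± 0.18 and -0.75 ± 0.24 (adjusted p = 0.421 at 1-2h).

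At 2-3h 26 of the 33 had the same direction, 19 of them at an unadjusted p under 0.05 (57.6%, against 23.3% of all genes in either direction) and 18 without overlap; 53.5% of 8222 genes tested at both times had the same sign. CG12560 (4.23 ± 0.44, adjusted p = 0.0503) and CG6180 (-2.33 ± 0.20, adjusted p = 0.0503) were among them. So were osi (-2.01 ± 0.24, adjusted p = 0.0617) and Hen1 (-1.42 ± 0.19, adjusted p = 0.0625). CG12560 had 2.66 ± 0.38 at 1-2h and 0.53 ± 0.33 at 0-1h. The 7 with the opposite sign were CG9304, CG12708, CG5446, CG14757, CG32026, Sting and CG8187, none at an unadjusted p under 0.05.

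At both other times 13 genes had the 1-2h direction at an unadjusted p under 0.05, among them CG17598, CG9577, hyx, Rab3GAP1, p24-1, Fnta, osi, Cyp12d1-p, muskelin, ecd, Hen1 and CG6180. They are 40.6% of the 32 called genes tested at all times. Over all 7456 genes tested at all times, 92 (1.23%) had the direction of their own 1-2h difference at an unadjusted p under 0.05 at both other times. The size varied: muskelin differed by -0.48 ± 0.18 at 0-1h and -0.50 ± 0.21 at 2-3h, against -1.85 ± 0.17 at 1-2h, and hyx by 0.47 ± 0.13 and 0.78 ± 0.18, against 1.36 ± 0.19.

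**Figure D4:**
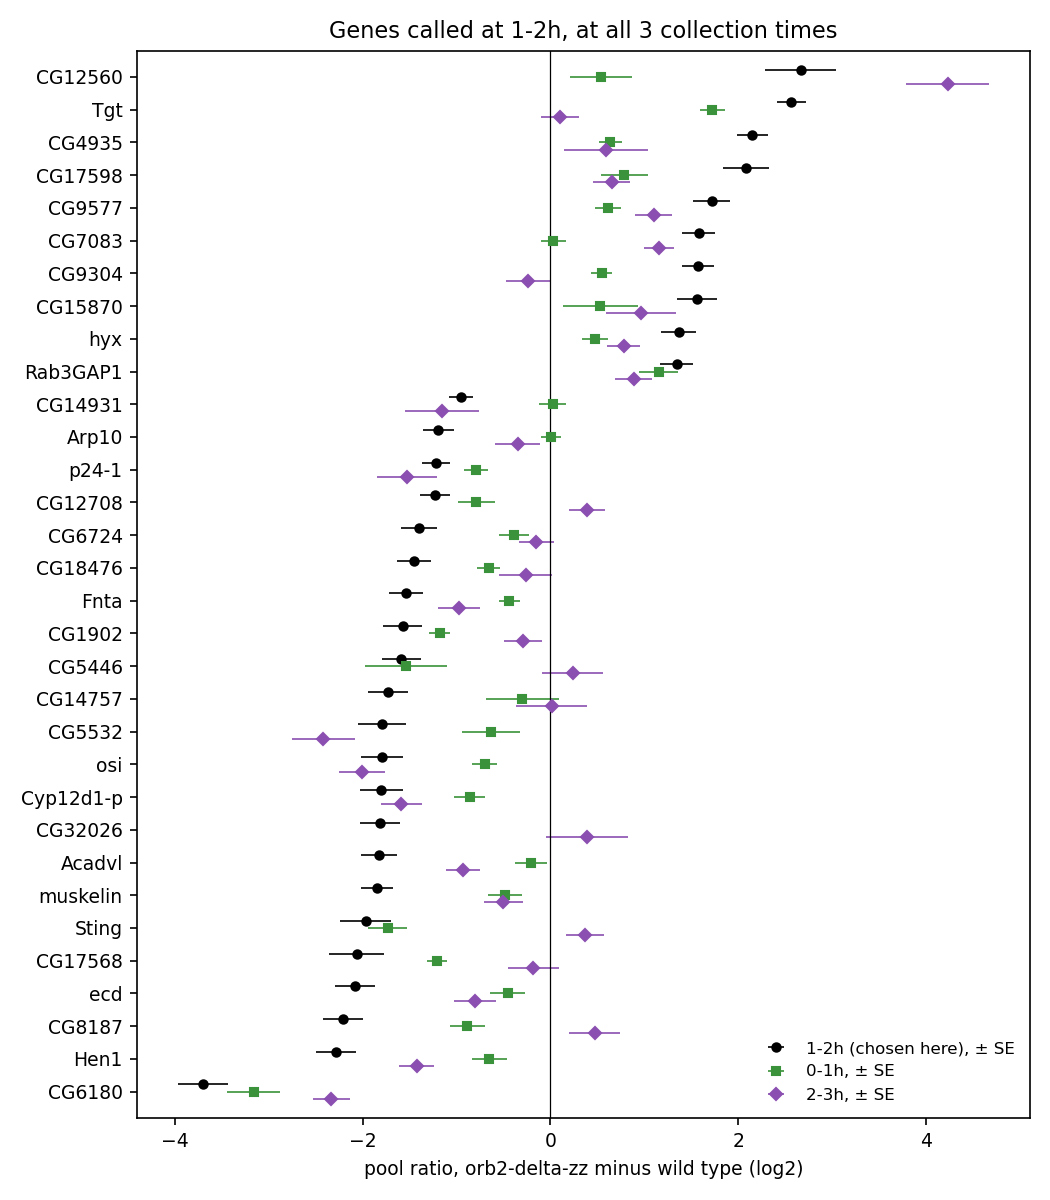
Genotype difference in pool ratio (horizontal axis, log2, ± SE, 3 gradients per genotype and time) of the genes called at 1-2h, shown at 1-2h (black), 0-1h (green) and 2-3h (violet). CG6180 lies below -2 at all 3 times, while Tgt is at 1.72 at 0-1h and 0.10 at 2-3h; CG32026 has no value at 0-1h.

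The difference of the genotype effect between times was tested on TPM over all 18 gradients. Between 1-2h and 0-1h it was called for 0 of 7294 genes (0.0%) with limma, with 132 at an unadjusted p under 0.05, and between 1-2h and 2-3h for 7 (0.096%), with 740 at an unadjusted p under 0.05. Of the 33 genes, Tgt had a larger effect at 1-2h by 1.91 (adjusted p = 0.0307), and CG5446 (-1.84, adjusted p = 0.0409), Sting (-2.16, adjusted p = 0.0271) and CG8187 (-1.99, adjusted p = 0.0271) had a more negative one. At 2-3h the normalized-count differences of these 4 genes were 0.10 ± 0.20, 0.24 ± 0.33, 0.37 ± 0.20 and 0.47 ± 0.27, none of them at an adjusted p under 0.05. CG32026 was not in this test. The rest of the 33 had no called difference between times, which does not show that their effects were equal.

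The gene lists of the translation machinery and of maternal regulation held few or no called genes. The lists were chosen with earlier results of these data known, so they are described by counts and medians beside those of all tested genes (median -0.03, 45.9% above 0, 0.398% called). In the list of endoplasmic reticulum translocation and secretion p24-1 was called, lower, of 29 tested; the other lists given below had no call.

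The mRNAs of 84 cytosolic ribosomal proteins, which have low ratios (median -4.19 to -3.72 over the 6 gradients), had a median difference of 0.00. Their most different member, RpLP2, a stalk protein of the large subunit, had ratios of -4.13, -4.59 and -4.25 in wild type and -4.87, -4.93 and -5.22 in the mutant (difference -0.69 ± 0.21, adjusted p = 0.394). Proteasome subunits (34, median 0.01), oxidative phosphorylation (66, median 0.00), translation factors (43, median 0.00), aminoacyl-tRNA synthetases (18, median -0.04) and chaperonin subunits (8, median 0.05) were likewise within 0.1 of 0. Mitochondrial ribosomal proteins had a median of -0.11, with 26.8% of 71 above 0, and first zygotic transcripts one of -0.15, with 29.0% of 62 above 0. The zygotic list had medians of -0.78 in pool 1 and -1.01 in pool 3, so its level differed between genotypes by more than its ratio. Replication-dependent histones had a median of -0.18 (23 genes, 3 above 0); their copies are near-identical and their counts uncertain.

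Among the regulators of maternal mRNA, eIF4EHP, the cap-binding repressor that works with Bicoid and Brat, came nearest to a call. Its ratios of -0.53, -0.61 and -0.37 in wild type and -1.39, -1.23 and -1.19 in the mutant did not overlap, but the difference of -0.77 ± 0.15 missed the threshold (adjusted p = 0.141); it was -0.68 at 0-1h and -0.998 at 2-3h. Hrb98DE, an hnRNP protein, had 3.96, 3.91 and 4.02 against 3.23, 3.17 and 2.93 (-0.85 ± 0.19, adjusted p = 0.185). Not1, the scaffold of the CCR4-NOT deadenylase, differed by -0.68 ± 0.24 (adjusted p = 0.449) with overlapping ratios. The 45 translational repressors and decay factors had a median of 0.12, with 66.7% above 0.

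In the germ plasm and piRNA list (37 genes, median 0.04) krimp, the Tudor-domain protein Krimper of the piRNA pathway, had ratios of -2.02, -2.41 and -1.89 in wild type and -1.19, -1.38 and -1.19 in the mutant. The difference of 0.85 ± 0.18 was not called (adjusted p = 0.165), and it was 0.93 at 0-1h and 1.67 at 2-3h. bru1, the translational repressor Bruno of oskar mRNA, differed by 0.46 ± 0.21 (adjusted p = 0.592). Of the 19 mRNAs named as Orb2 targets in earlier work on neurons and testis none was called (median -0.08, 26.3% above 0). The kinase mRNA aPKC differed by 0.43 ± 0.16 (adjusted p = 0.468) and CaMKII by -0.32 ± 0.16 (adjusted p = 0.653).

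The classic maternal transcripts (37, median 0.06) held mtrm, an inhibitor of Polo kinase, at -0.56 ± 0.17 (adjusted p = 0.366) and cact, the inhibitor of Dorsal, at -0.61 ± 0.20 (adjusted p = 0.413). In the replication list dup, the licensing factor Cdt1, had ratios of 1.22, 0.94 and 1.30 against 1.85, 1.76 and 1.86 (0.67 ± 0.20, adjusted p = 0.356). Of the nucleoporins Nup358 differed by -0.69 ± 0.23 (adjusted p = 0.425), and of the cytoskeletal genes alpha-Cat by -0.55 ± 0.16 (adjusted p = 0.366); none of these 5 passed the test. Long noncoding RNAs (162, median -0.09, 14 lower and 5 higher at an unadjusted p under 0.05, against 522 lower and 211 higher of all tested genes) and antisense RNAs (79, median -0.10) had no called member. Pan gu kinase and cyclin genes (35, median 0.02), kinesins (20, median 0.09), heat-shock genes and chaperones (17, median -0.05) and late-embryo markers (37, median 0.13) had none either.

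**Figure D5:**
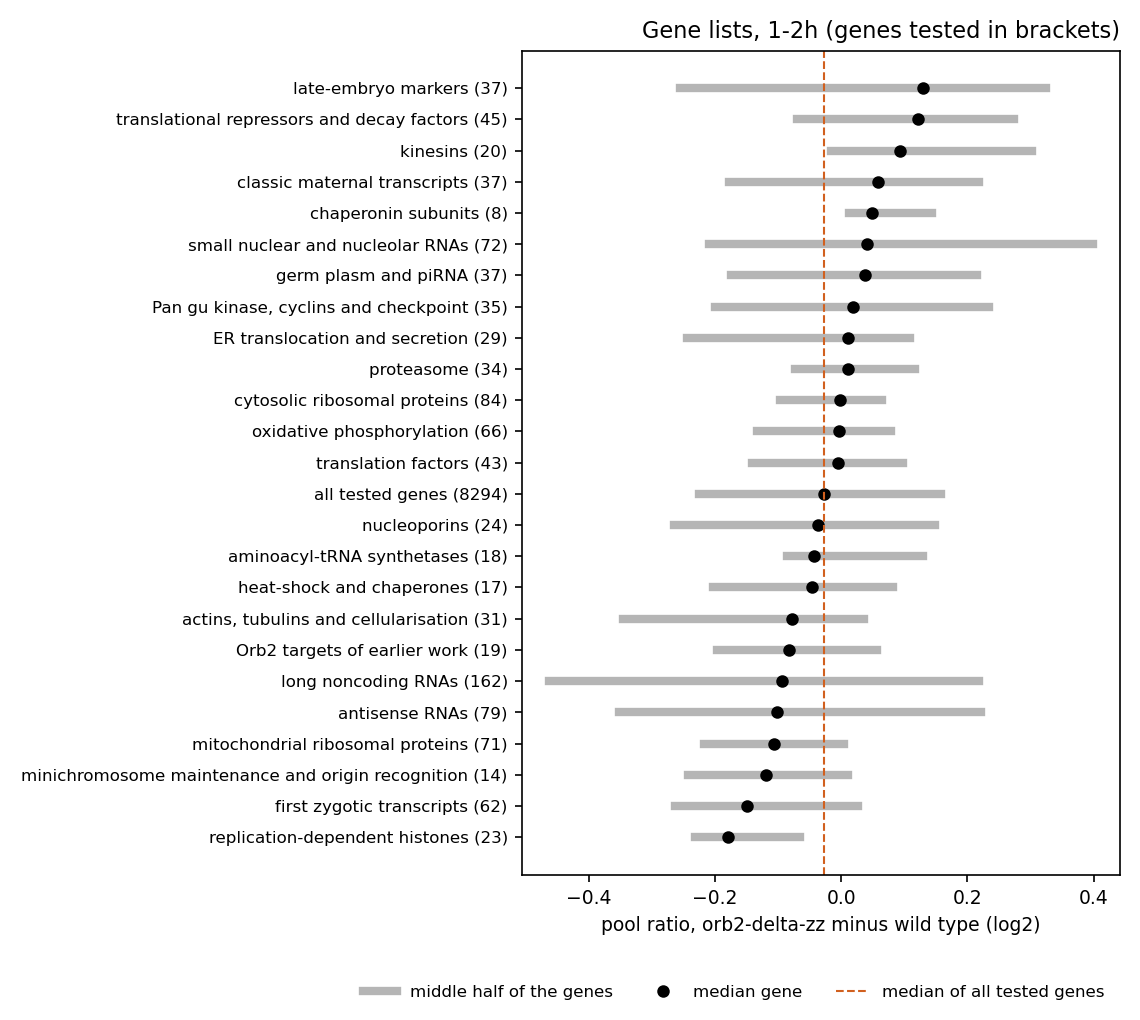
Median genotype difference in pool ratio at 1-2h (black points, log2) and the middle 50% of genes (grey bars) of gene lists with at least 8 tested genes, with the number tested in brackets and the median of all tested genes as a dashed line. The list medians lie between -0.18 (replication-dependent histones) and 0.13 (late-embryo markers).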

How the data were processed

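RNA was sequenced from pools 1 and 3 of sucrose gradients as stranded libraries depleted of ribosomal RNA, per the labels. The authors deposited normalized counts (a signal for each gene in each library), scaled with DESeq2 1.42.1 for each time on its own, after Trim Galore 0.6.5 and Salmon 1.9.1, per the submitters' processing notes. The authors also deposited TPM values of the same libraries. The sources used here do not give the genome build. A gene is listed at a time where its value exceeds 0 in each of the 12 libraries. Whole reads are not recovered from these values, so depth was estimated from the step between low values and no counting intervals are given.

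From these values 1 ratio per gradient, log2(pool 3 + 1) minus log2(pool 1 + 1), was computed for genes averaging at least 10 normalized counts and compared between genotypes with limma 3.58.1 (trend, R 4.3.3, two-sided, Benjamini-Hochberg over all tested genes, adjusted p under 0.05). A fold change on this scale understates that of low genes. The difference between times used log2(TPM + 1) at a mean TPM of at least 1, since normalized counts were scaled per time. Tables were made in Python 3.11.15 with pandas 2.3.3, numpy 2.4.6 and scipy 1.17.1, and figures with matplotlib 3.10.9. Ensembl release 115 (BDGP6) supplied symbols and positions and gave a symbol to 8659 of 8723 gene IDs.

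Same-numbered gradients of the genotypes tended to deviate together (correlations of the deviations from group means, across genes, of 0.28, 0.23 and 0.11). Differently numbered pairs had correlations of -0.295 to 0.0841. The labels do not tie the numbers to a shared day or collection, and the deposited column names number replicate 1 of the genotypes differently. Alternatives were 3 other scalings, TPM, 2 other pseudocounts, 2 other filters, no trend, the fits with and without the replicate block, and leaving out gradients. Named genes are the 12 highest and 12 lowest differences among called genes that average at least 100 normalized counts, with no overlap of genotypes, filled by smallest p where fewer were called, plus orb2 and the 3 list members with the smallest p per list, of which some are given. The other 11 called genes, outside that rule, and the genes called at another time or between times were named after their values were seen. Of the called genes 1 is not reported here. Members and lists were chosen with earlier results of these data known.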

Additional observations from a re-analysis of the deposited data

Results flagged for a closer look

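A genotype effect on the pool ratio that differed between 1-2h and 2-3h embryos was called for 7 genes in the test of the difference itself (limma on TPM, 3 gradients per genotype and time). The effect at 1-2h minus that at 2-3h was 1.91 for Tgt (adjusted p = 0.0307), -1.84 for CG5446 (adjusted p = 0.0409), -2.16 for Sting (adjusted p = 0.0271) and -1.99 for CG8187 (adjusted p = 0.0271), all called at 1-2h. The other 3 were not called at 1-2h. Trs23, a subunit of the TRAPP tethering complex, had 2.31 (adjusted p = 0.00751), with normalized-count differences of 1.35 at 0-1h, 1.37 at 1-2h and -1.17 at 2-3h. Ten-a, a teneurin adhesion protein, had -2.66 (adjusted p = 0.00795), with -0.43, -0.89 and 1.38 at the 3 times. ntc, the F-box protein nutcracker, had -1.54 (adjusted p = 0.0271), with -0.22, 0.17 and 1.76. The cause was not tested.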

How the results depend on the processing

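The main counts were 11 genes with a higher and 22 with a lower ratio. They became 7 and 12 with quantile normalization, 8 and 10 with upper-quartile scaling, 6 and 8 without a filter on low values, 25 and 36 with a minimum mean of 100 normalized counts, 30 and 66 with TPM, and 1 and 1 with the replicate block shared between genotypes; without the replicate block, with pools not paired, they were 11 and 29. Without single replicates they ranged from 0 to 9 and from 0 to 6, and with both wild-type replicate 2 and replicate 3 of orb2-delta-zz left out they were 0 and 0 by limma, with 758 genes at an unadjusted p under 0.05. Pseudocounts of 0.5 and 10, median-centred ratios and limma without trend stayed within 1.5 times the main counts. Genes shared with the main calls were 17 of 19 with quantile normalization, 29 of 61 at the higher filter and 28 of 96 with TPM. Over the alternatives none of the values of the called genes changed sign, which was fixed in advance for most of these settings. Of these values 262 stayed past the threshold and 327 did not, and the cause was not tested. Of the list medians 446 stayed within the spread between gradients and 4 moved by more. With 3 gradients per genotype the smallest two-sided p of an exact permutation test is 0.1, so the calls rest on the spread that limma shares between genes. Low genes are limited by depth: the wild-type counts of CG12560 and the pool 1 counts of CG32026 rest on few reads.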

Other observations

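The called genes were unevenly spread over the chromosomes, which was not looked for in advance and is given as counts with no test. Of the 33, 22 were on chromosome 2 (66.7%, against 37.8% of 8232 tested genes with a position), 5 on chromosome 3 (15.2%, against 43.7%) and 6 on the X (18.2%, against 17.5%); orb2 is on chromosome 3L. Among the 117 genes with a difference of at least 1 and a mean of at least 100 normalized counts, 61.5% were on chromosome 2 and 17.9% on chromosome 3. The same cut gave 64.5% and 19.4% of 62 genes at 0-1h, and 44.4% and 34.5% of 426 genes at 2-3h. Genes of one chromosome are linked and not independent, the genome sequence of the stocks was not analysed here, and the cause was not tested.

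Some genes differed in both pools by more than in their ratio. dati, on chromosome 4, differed by -6.03 on the log2 scale in pool 1 and by -4.47 in pool 3, and CG12560, on 2L, was higher by 4.07 and 6.73. CG14931 was higher by 2.03 in pool 1 and 1.08 in pool 3. These are values of 3 gradients per genotype, with no test of the pools here.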
